A study of Rattus norvegicus with 4 samples.

Results

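The 10 genes described here encode cardiac transcription factors: Gata4, Gata6, Nkx2-5, Tbx5, Tbx20, Mef2a, Mef2c, Mef2d, Hand2 and Meis1. They were taken by symbol from a table of 16290 genes, and 10 of 10 had a row and passed the filter on low values. The libraries were made from cultured cardiomyocytes (heart muscle cells) of neonatal rats at postnatal day 3. All cells had received an adenovirus, a viral carrier for gene delivery, which encoded either mock (2 libraries, Mock 1 and Mock 2) or Pdk3 (2 libraries, Pdk3 1 and Pdk3 2). Pdk3 is a kinase that inhibits the pyruvate dehydrogenase complex, the gate between glycolysis and the citric acid cycle, and the series title places the comparison in work on glycolysis and cardiomyocyte proliferation. The labels give no strain, sex, time after infection, promoter of the vector or number of separate cultures, so a p-value here speaks to the scatter of these 4 libraries alone, which could be technical.

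Cardiac transcription factors act together. GATA zinc finger proteins, the homeodomain protein NKX2-5, T-box proteins and MEF2 proteins bind neighbouring sites in heart gene enhancers, contact each other and switch on contractile, ion channel and hormone genes. The basic helix-loop-helix protein HAND2 patterns the growing ventricles, TBX20 maintains the adult heart muscle programme, and MEIS1, a homeodomain protein, is known for its part in the exit of mouse cardiomyocytes from the cell cycle after birth.

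The values are normalised read counts: reads per gene that the authors divided by a factor per library and rounded. Totals lay between 4448199 and 4476649 per library, and the largest value of any gene was 8169. Pdk3 itself had 396 and 411 in the mock libraries and 1218 and 1177 in the Pdk3 libraries, a log2 fold change of 1.57 ± 0.03 (SE). The markers of the labelled cell type were present, with the 12 cardiomyocyte markers summing to between 27059 and 28222 per library and none of them below 297 in any library. Libraries of the same group differed by less than read counting alone predicts. Over 10583 genes with a mean of at least 50, the chi-square statistic per gene was 0.553 for the mock pair and 0.547 for the Pdk3 pair, where counting noise gives 1, against 3.78 for Mock 1 with Pdk3 1. The errors from limma can therefore be smaller than counting allows. For each called factor, and for each other named gene whose call it ends, the adjusted p is also given after flooring p at counting noise, that is, taking the larger of limma's p and an exact binomial p of the summed reads.

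Most of the 10 genes were at similar levels with and without Pdk3, and 4 moved by modest amounts. Mef2c rose 1.24-fold and Tbx20 1.09-fold, while Meis1 fell by 12.9% and Mef2d fell by 9.16%. These 4 passed the test (limma on log2 values, Benjamini-Hochberg adjusted p under 0.05), 2 higher and 2 lower, and the other 6 did not. Over the 12838 genes tested 22.9% passed, 11.7% higher and 11.3% lower, and among the 10689 genes with values of at least 50, which include all 10 factors, 31.8% passed. After flooring at counting noise 1 of the 10 passed, Mef2c, against 15.8% of all genes tested (8.38% higher and 7.44% lower). The median log2 fold change was -0.01 over the 10 factors, as over all genes tested (-0.01).

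**Figure D1:**
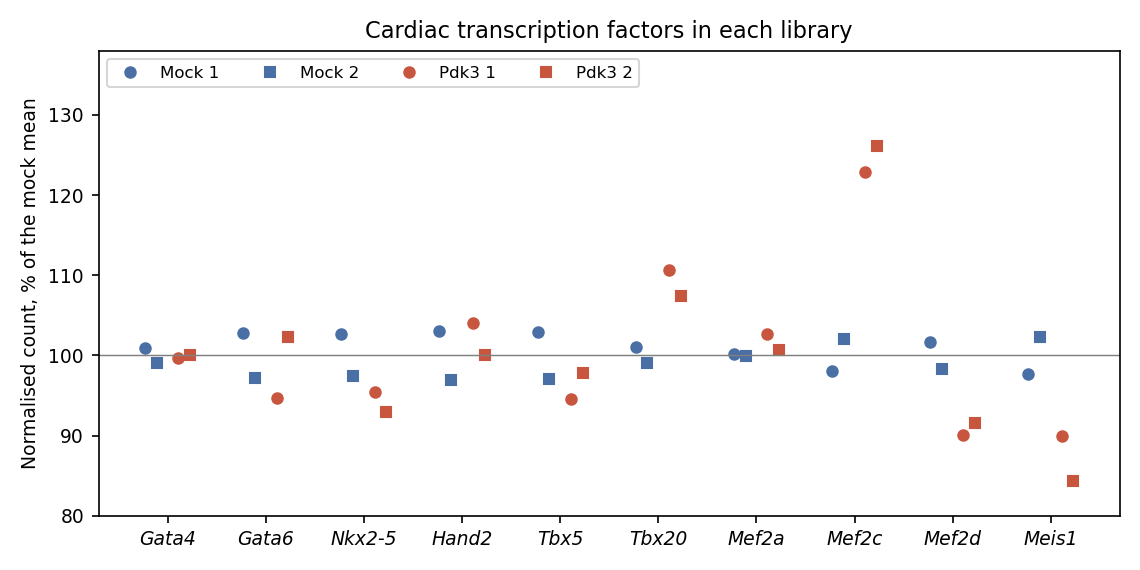
Normalised count of each factor in each library, as a percentage of the mean of the 2 mock libraries (y axis), with circles for replicate 1 and squares for replicate 2. The Pdk3 libraries (red) stand clear of the mock libraries (blue) for Mef2c, Tbx20, Mef2d and Meis1, and interleave with them for Gata4, Gata6, Hand2 and Tbx5.

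The libraries of the groups did not overlap for 6 of the 10 genes, 3 with Pdk3 higher (Mef2c, Tbx20 and Mef2a) and 3 with Pdk3 lower (Mef2d, Meis1 and Nkx2-5). Such separation was found for 61% of all genes tested (29.9% with Pdk3 higher and 31.1% with Pdk3 lower), so the share among the factors is near the background. With any 1 library left out, limma called 0 of the 10 genes and 0 of all genes, with 1 residual degree of freedom, while 2 to 3 of the 10 had an unadjusted p under 0.05. Over all genes the calls split into 1496 higher and 1449 lower, 50.8% higher. With another scaling, one that makes the median ribosomal protein gene equal in both groups (called ribosomal protein genes level below), the split was 918 to 3047, or 23.2% higher, and 1 factor (Mef2c) was called higher and 4 (Mef2d, Meis1, Nkx2-5 and Gata4) lower.

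The MEF2 genes encode MADS-box proteins that bind AT-rich sites in muscle genes and respond to calcium signals through class II histone deacetylases. Mef2c rose, Mef2d fell and Mef2a did not pass. Mef2c (ENSRNOG00000033134, chromosome 2, 11658568 to 11822787, plus strand, rn6), which the embryo needs to form its heart, stood at 738 and 768 with mock and at 925 and 950 with Pdk3. Both Pdk3 libraries lay above both mock libraries by far more than either pair differed. The mean went from 753.0 ± 21.2 to 937.5 ± 17.7 (SD, n = 2 each), a log2 fold change of 0.32 ± 0.03 (SE, limma adjusted p = 0.000472, and 0.000472 floored at counting noise). Of all genes tested, 17.7% had a larger change in either direction. Its change lay between 0.24, with ribosomal protein genes level, and 0.34, without Mock 2, over the alternatives tried. The call ended where a library was left out, with adjusted p between 0.145 and 0.167.

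Mef2d (ENSRNOG00000031778, chromosome 2, 187512164 to 187538026, plus strand, rn6) had 616 and 596 in the mock libraries and 546 and 555 in the Pdk3 libraries. Both Pdk3 libraries lay below both mock libraries. The mean went from 606.0 ± 14.1 to 550.5 ± 6.36 (SD, n = 2 each), a log2 fold change of -0.14 ± 0.03 (SE, limma adjusted p = 0.0241). The call ended when floored at counting noise (adjusted p = 0.103), with limma run without an intensity trend (0.134), with no filter on low values (0.0847) and with any 1 library left out (0.167 to 0.205).

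Mef2a (ENSRNOG00000047756, chromosome 1, 128209971 to 128341263, minus strand, rn6) had 1054 and 1051 in the mock libraries and 1080 and 1059 in the Pdk3 libraries. The groups were just apart, by less than the Pdk3 libraries differed from each other. Its log2 fold change of 0.02 did not pass (limma adjusted p = 0.532), and the 95% interval from limma ran from -0.03 to 0.08. With ribosomal protein genes level the sign turned, to -0.05 (adjusted p = 0.127).

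**Figure D2:**
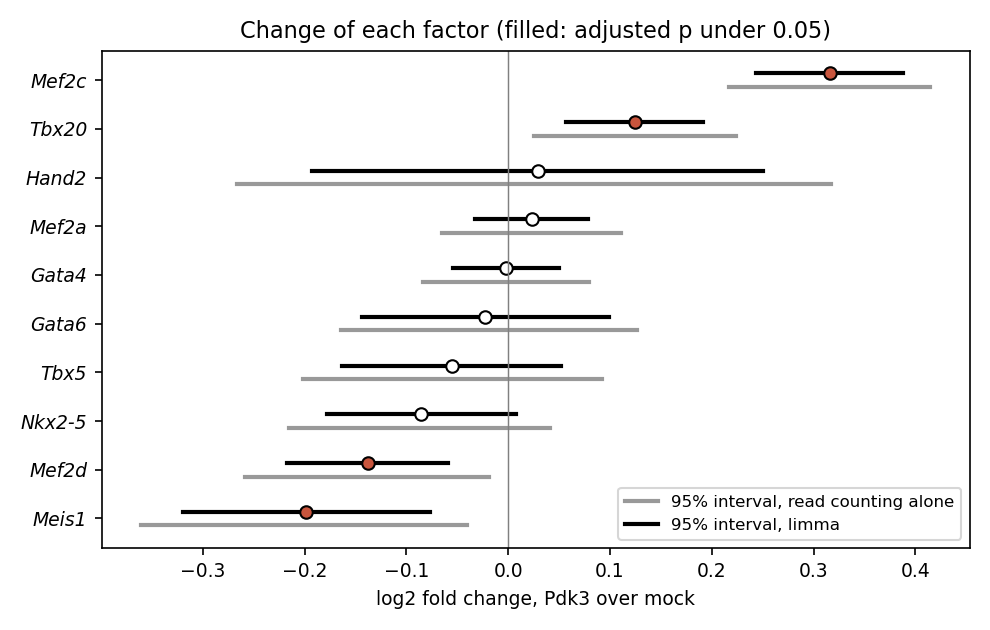
Log2 fold change of each factor, Pdk3 over mock (x axis), with the 95% interval from limma (black) and the exact (Clopper-Pearson) 95% interval that read counting alone gives (grey). Filled points passed at an adjusted p under 0.05. Both intervals of Mef2c, Tbx20, Mef2d and Meis1 leave out 0, and those of Hand2, with the fewest reads, are the widest.

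Because a scaling factor is shared by all genes of a library, the proportions among MEF2 genes do not depend on it. Mef2c made up 30.6% and 31.8% of the summed normalised counts of the 3 MEF2 genes in the mock libraries and 36.3% and 37.1% in the Pdk3 libraries. Mef2d made up 25.6% and 24.7% in the mock libraries and 21.4% and 21.6% in the Pdk3 libraries. The share of Mef2a was 43.8% and 43.5% in the mock libraries and 42.3% and 41.3% in the Pdk3 libraries. The mix thus held more Mef2c and less of the other two in both Pdk3 libraries. The ratio of Mef2c to Mef2d was 1.20 and 1.29 in the mock libraries and 1.69 and 1.71 in the Pdk3 libraries, with no overlap. With 2 libraries against 2 the smallest two-sided p of an exact permutation test is 0.333, which this ratio reached. These shares are not divided by transcript length, so they show how the mix differed between libraries and not which gene had more transcripts. The fourth family member, Mef2b, had no row under that symbol in the table used and so was not analysed here.

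**Figure D3:**
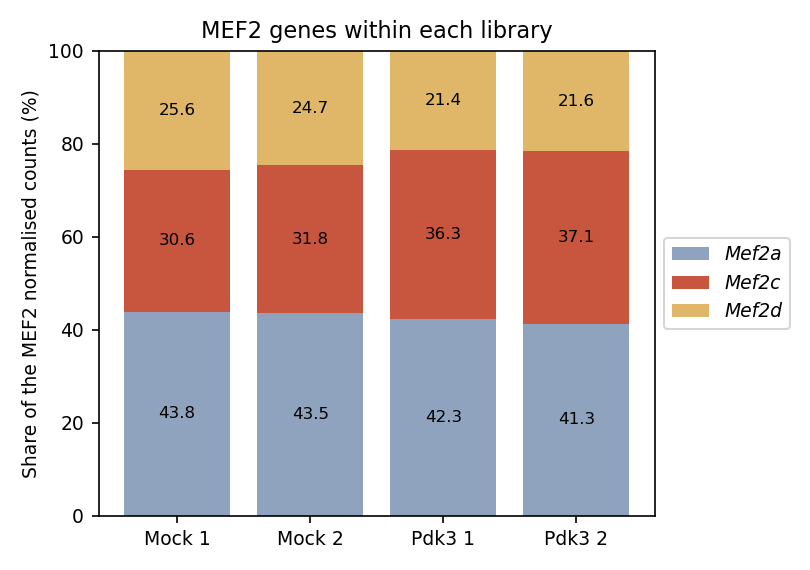
Share of each MEF2 gene (%) in the summed normalised counts of Mef2a, Mef2c and Mef2d in each library. The Mef2c segment (red) grows from 30.6% and 31.8% in the mock libraries to 36.3% and 37.1% in the Pdk3 libraries, and the Mef2d segment (yellow) shrinks.

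Promoter sequences from RefSeq (assembly GRCr8, not the rn6 build of the counts) were matched by symbol for 8 of the 10 factors, each from 250 bases before to 50 bases after the annotated start. Mef2c, which passed the test, and Gata4 were not among these 8. Shown are the promoters of Tbx20, Mef2d and Meis1, which also passed, and that of Mef2a, which holds a site for its own family. They are, 5′ to 3′ along the gene, chr1:130392113-130392412 (minus strand) for Mef2a, chr8:31533960-31534259 (minus strand) for Tbx20, chr2:175904082-175904381 (plus strand) for Mef2d and chr14:97495034-97495333 (minus strand) for Meis1. Capitals mark matches to the words searched.
Mef2a: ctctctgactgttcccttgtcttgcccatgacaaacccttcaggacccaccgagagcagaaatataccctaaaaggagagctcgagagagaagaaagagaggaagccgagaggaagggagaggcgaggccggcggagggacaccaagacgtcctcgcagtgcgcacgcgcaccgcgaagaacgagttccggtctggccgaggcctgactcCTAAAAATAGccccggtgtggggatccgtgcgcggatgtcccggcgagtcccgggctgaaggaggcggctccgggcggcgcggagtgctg
Tbx20: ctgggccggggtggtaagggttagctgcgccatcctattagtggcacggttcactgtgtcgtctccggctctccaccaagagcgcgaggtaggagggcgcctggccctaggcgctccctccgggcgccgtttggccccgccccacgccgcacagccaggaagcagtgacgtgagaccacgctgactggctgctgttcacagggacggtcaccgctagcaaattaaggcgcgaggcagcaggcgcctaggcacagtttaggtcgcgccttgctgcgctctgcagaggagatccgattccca
Mef2d: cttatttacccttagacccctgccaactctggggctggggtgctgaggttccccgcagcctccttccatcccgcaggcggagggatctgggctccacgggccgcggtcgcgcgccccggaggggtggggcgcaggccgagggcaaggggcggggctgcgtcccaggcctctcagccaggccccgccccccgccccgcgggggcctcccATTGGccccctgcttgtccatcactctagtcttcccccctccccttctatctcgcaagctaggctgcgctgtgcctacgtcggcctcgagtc
Meis1: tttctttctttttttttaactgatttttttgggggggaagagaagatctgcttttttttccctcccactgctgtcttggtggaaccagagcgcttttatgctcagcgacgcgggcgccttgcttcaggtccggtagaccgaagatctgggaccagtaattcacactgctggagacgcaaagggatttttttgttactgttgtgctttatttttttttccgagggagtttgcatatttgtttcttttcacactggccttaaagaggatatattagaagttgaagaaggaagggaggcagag

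Both strands were searched for a few short words. For the factors themselves these were the MEF2 consensus, a GATA site (GATAA), a MEIS site (TGACAG) and a T-box half-site (GGTGTGA). Common promoter words were also searched, namely the E-box CACGTG and the CCAAT box. A TATA box (TATAAA) completed the search. The MEF2 consensus was matched 40 bases upstream of the start of Mef2a, a match found in 3.29% of 33469 promoters of the same length. Mef2d held a CCAAT box on the minus strand, a word found in 37.5% of promoters. The windows of Tbx20 and Meis1 held none of the words. MEIS words lay in the windows of Gata6, Nkx2-5 and Tbx5 (19% of promoters) and GATA words in those of Tbx5 and Hand2 (26.5%). CCAAT boxes also lay in those of Gata6, Nkx2-5 and Hand2, and no matches overlapped. The T-box half-site (3.83% of promoters), the E-box (6.42%) and the TATA box (14.2%) were in none of the 8 windows. The promoters also differed in composition, with 71.3% G and C in Mef2d, 65.3% in Tbx20, 63% in Mef2a and 43.7% in Meis1, against a median of 51.7% over all promoters. These matches describe letters in the windows and carry no measurement of binding.

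Of the T-box genes, Tbx20 was higher with Pdk3 and Tbx5 was not called. Tbx20 (ENSRNOG00000016181, chromosome 8, 25850962 to 25904570, minus strand, rn6) had 811 and 795 in the mock libraries and 889 and 862 in the Pdk3 libraries. The groups did not overlap, and the gap between them exceeded the difference within either pair. The mean went from 803.0 ± 11.3 to 875.5 ± 19.1 (SD, n = 2 each), a log2 fold change of 0.12 ± 0.03 (SE, limma adjusted p = 0.0201). The call ended when floored at counting noise (adjusted p = 0.0717), with no intensity trend (0.156) and with no filter on low values (0.0915). It also ended with ribosomal protein genes level, where the change was 0.05 (0.251), and with any 1 library left out (0.151 to 0.224).

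Tbx5 (ENSRNOG00000001399, chromosome 12, 42097626 to 42148146, plus strand, rn6), a partner of GATA4 and NKX2-5 at chamber and conduction genes, had 404 and 381 in the mock libraries and 371 and 384 in the Pdk3 libraries. The groups overlapped. Its log2 fold change was -0.06 ± 0.05 (limma adjusted p = 0.432, 95% interval -0.16 to 0.05). The ratio of Tbx20 to Tbx5 within a library was 2.01 and 2.09 in the mock libraries and 2.40 and 2.24 in the Pdk3 libraries, without overlap (exact permutation p = 0.333, the smallest possible).

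Meis1 (ENSRNOG00000004606, chromosome 14, 103181281 to 103321270, minus strand, rn6) had 342 and 358 in the mock libraries and 315 and 295 in the Pdk3 libraries. The Pdk3 libraries were both lower, by a gap wider than the difference within either pair. The mean went from 350.0 ± 11.3 to 305.0 ± 14.1 (SD, n = 2 each), a log2 fold change of -0.20 ± 0.05 (SE, limma adjusted p = 0.0315), and 30.9% of all genes tested had a larger change. The call ended when floored at counting noise (adjusted p = 0.0736), with no intensity trend (0.129) and with no filter on low values (0.127). It also ended with the replicate number as a block (0.0519) and with any 1 library left out.

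The paralogues of Meis1 gave a mixed picture. Meis3 fell, from 135 and 146 to 106 and 112, a change of -0.36 ± 0.09 on the log2 scale (limma adjusted p = 0.0229, and 0.0414 when floored at counting noise). Meis2 had 669 and 644 in the mock libraries and 627 and 637 in the Pdk3 libraries and did not pass (-0.05, adjusted p = 0.278). Within a library the ratio of Meis1 to Meis2 was 0.511 and 0.556 with mock and 0.502 and 0.463 with Pdk3, a gap far narrower than the difference within either pair. The PBX homeodomain proteins bind DNA together with MEIS proteins. Pbx2 and Pbx3 had log2 fold changes of -0.05 and -0.06 and did not pass (adjusted p = 0.478 and 0.254).

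Gata4 (ENSRNOG00000010708, chromosome 15, 46386712 to 46432965, minus strand, rn6), the GATA factor that activates many contractile genes and the natriuretic peptide genes, was the factor with the smallest change. It stood at 1251 and 1227 in the mock libraries and 1235 and 1239 in the Pdk3 libraries, and the Pdk3 values lay between the mock values. The log2 fold change was -0.002 ± 0.02 (limma adjusted p = 0.955, 95% interval -0.05 to 0.05), and 98.8% of all genes tested had a larger change. The sign turned with TMM scaling (0.01), and with ribosomal protein genes level Gata4 was called lower (-0.08, adjusted p = 0.0325).

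Gata6 (ENSRNOG00000023433, chromosome 18, 2416552 to 2446338, plus strand, rn6), which overlaps with GATA4 in function, had 408 and 386 in the mock libraries and 376 and 406 in the Pdk3 libraries. The groups overlapped, and the log2 fold change was -0.02 ± 0.05 (limma adjusted p = 0.792, 95% interval -0.14 to 0.10). The ratio of Gata4 to Gata6 within a library was 3.07 and 3.18 with mock and 3.28 and 3.05 with Pdk3. The third cardiac GATA gene, Gata5, had 401 and 383 with mock and 388 and 387 with Pdk3 (-0.02, adjusted p = 0.816).

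Nkx2-5 (ENSRNOG00000020747, chromosome 10, 16635989 to 16638764, plus strand, rn6), an early homeodomain marker of the heart lineage, had 531 and 504 in the mock libraries and 494 and 481 in the Pdk3 libraries. The Pdk3 libraries were both lower, by a gap narrower than the difference within either pair. The log2 fold change of -0.09 ± 0.04 did not pass (limma adjusted p = 0.166, 95% interval -0.18 to 0.01). With ribosomal protein genes level it was called lower (-0.16, adjusted p = 0.0189).

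Hand2 (ENSRNOG00000060448, chromosome 16, 36371489 to 36373546, minus strand, rn6) had 102 and 96 in the mock libraries and 103 and 99 in the Pdk3 libraries. The groups overlapped, and the log2 fold change of 0.03 ± 0.10 did not pass (limma adjusted p = 0.858, 95% interval -0.19 to 0.25). At about 396 reads over the 4 libraries, the 95% interval from counting alone ran from -0.27 to 0.32, so a change of the size of Tbx20's (0.12) would not be detectable for Hand2 at this depth. A long noncoding RNA gene of the table, AABR07025387.1 (chromosome 16, 36374593 to 36388331, plus strand), begins 1046 bases beyond the 5′ end of Hand2 on the other strand and was looked up after the values were seen. It had 86 and 87 with mock and 87 and 107 with Pdk3 (log2 fold change 0.16, adjusted p = 0.404). No gene of the table overlaps the span of any of the 10 factors, and within 5 kb the other neighbour is Neil2, on the same strand as Gata4.

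**Figure D4:**
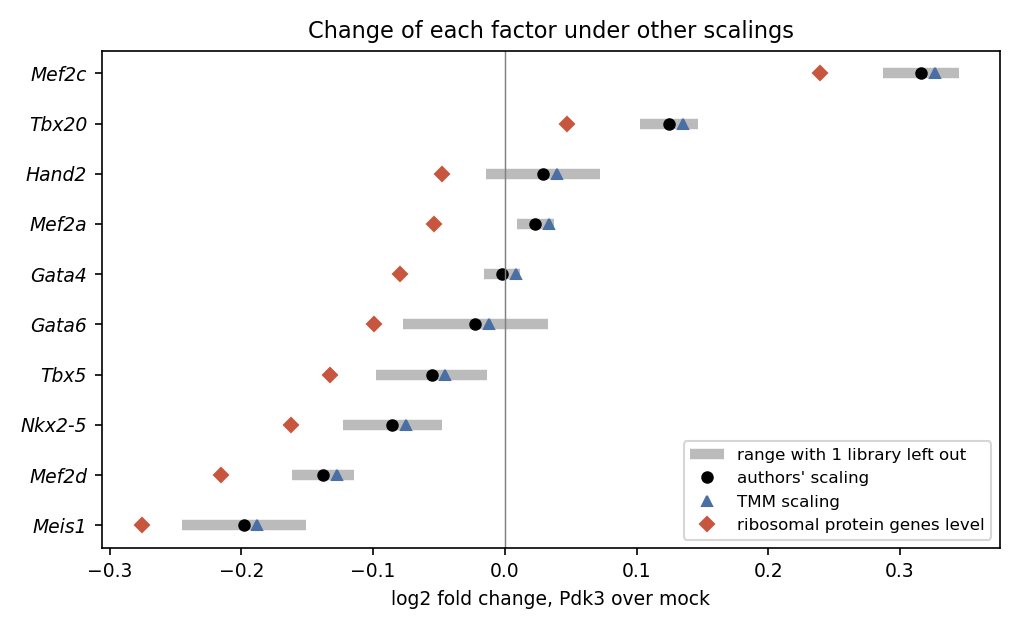
Log2 fold change of each factor, Pdk3 over mock (x axis), with the authors' scaling (circles), TMM scaling (triangles), the median ribosomal protein gene level (diamonds) and the range when 1 library is left out (grey bars). Mef2c and Tbx20 stay above 0 and Mef2d, Meis1, Nkx2-5 and Tbx5 below 0 in all of these settings, while Gata4, Gata6, Mef2a and Hand2 cross it.

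Of 42 other transcription factors of the heart listed, 41 had a row, 36 passed the filter on low values, 1 rose and 5 fell, where 11.7% of all genes tested rose and 11.3% fell. Their median log2 fold change was -0.07, beside -0.01 over all genes tested. Tead3, a TEA domain factor that binds muscle gene promoters and partners YAP, fell from 573 and 589 to 434 and 484 (-0.34 ± 0.05, limma adjusted p = 0.00384, and 0.00399 floored at counting noise). Nfatc2, a factor that moves to the nucleus when calcineurin is active, fell from 118 and 127 to 57 and 76 (-0.89 ± 0.15, adjusted p = 0.00495, and 0.0052 floored). Its relative Nfatc3 was the one that rose, from 814 and 826 to 893 and 890 (0.12 ± 0.03, adjusted p = 0.0149), and its call ended when floored at counting noise (0.0801). Esrrg, a nuclear receptor for genes of oxidative metabolism, fell by 0.11 on the log2 scale (adjusted p = 0.0129). Besides Meis3, the fifth to fall was Irx3, a homeodomain factor of the conduction system, named here after its values were seen (289 and 266 against 217 and 239, adjusted p = 0.0241). Srf, the serum response factor that controls contractile genes, stood at 0.07 on the log2 scale and did not pass (adjusted p = 0.0919), and Tbx3, a T-box repressor of the conduction system, stood at -0.31 (adjusted p = 0.0506). Without an intensity trend 0 were called in either direction. Isl1, a factor of cardiac progenitors, was below the filter, with 4 and 1 in the mock libraries and 0 in both Pdk3 libraries.

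Of 29 partners and cofactors of these factors listed, 26 had a row and 25 were tested, of which 3 rose and 2 fell, a share near the 22.9% of all genes tested that passed. Their median log2 fold change was -0.05. Class IIa histone deacetylases bind MEF2 proteins and hold their targets silent, and protein kinase D sends them out of the nucleus. Hdac9 rose from 168 and 154 to 204 and 202 (log2 fold change 0.33 ± 0.07, limma adjusted p = 0.0141), and Hdac5 fell from 846 and 845 to 766 and 762 (-0.15 ± 0.03, adjusted p = 0.00701). Both calls held when floored at counting noise (0.0172 and 0.0319). Both ended with no intensity trend (0.0679 for Hdac9 and 0.103 for Hdac5), and that of Hdac9 also ended with no filter (0.0811). The ratio of Hdac9 to Hdac5 within a library was 0.199 and 0.182 with mock and 0.266 and 0.265 with Pdk3. Hdac4 (-0.11, adjusted p = 0.423) and Hdac7 (-0.26, adjusted p = 0.110) did not pass.

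Crebbp, a histone acetyltransferase that serves as coactivator of GATA4 and MEF2 proteins, fell from 896 and 909 to 806 and 805 (-0.16 ± 0.03, limma adjusted p = 0.00414). Prkd1, a protein kinase D gene, rose from 163 and 147 to 183 and 191 (0.27 ± 0.08, adjusted p = 0.0421, and 0.0739 with the floor at counting noise). The corepressor gene Tle1 rose from 47 and 46 to 66 in both Pdk3 libraries (0.50 ± 0.13, adjusted p = 0.0293, and 0.0616 floored). The GATA cofactor genes Zfpm1 and Zfpm2 (0.04 each, adjusted p = 0.482 and 0.546) and Myocd, the coactivator of serum response factor (-0.06, adjusted p = 0.0932), did not pass. Among calcineurin genes, Ppp3ca (-0.04, adjusted p = 0.623) and Rcan1 (-0.05, adjusted p = 0.150) did not pass either.

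**Figure D5:**
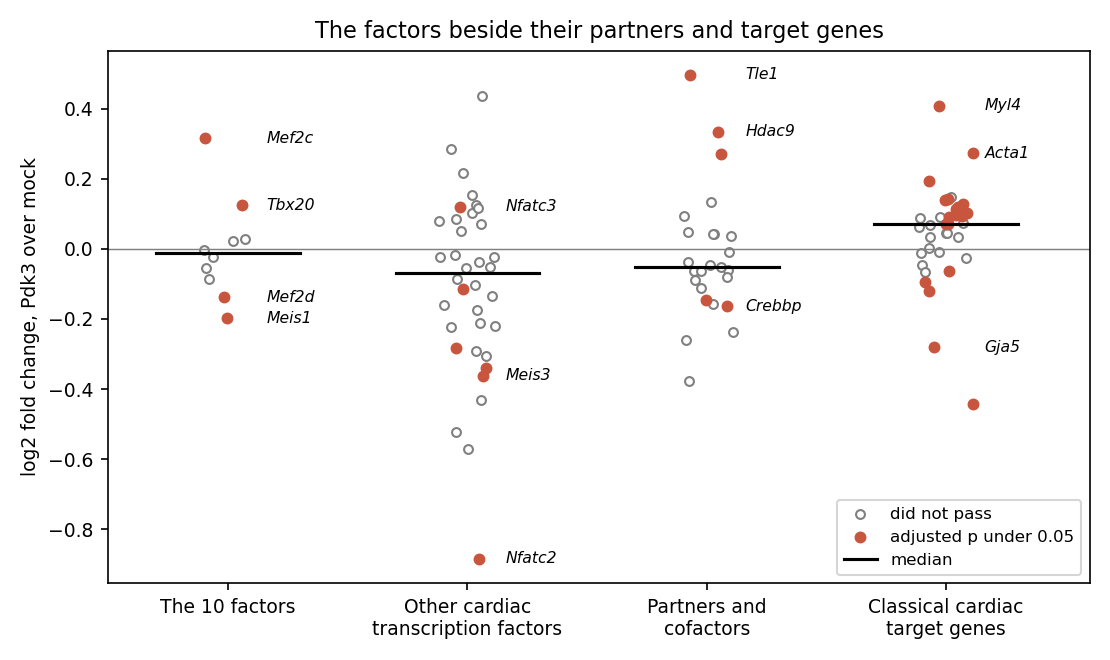
Log2 fold change, Pdk3 over mock (y axis), of each tested gene among the 10 factors, other cardiac transcription factors, partners and cofactors, and classical cardiac target genes. Red points passed at an adjusted p under 0.05 and bars are medians, at -0.01, -0.07, -0.05 and 0.07.

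Of 38 classical target genes of these factors listed, 37 had a row and 36 were tested, of which 14 rose and 5 fell, beside 11.7% higher and 11.3% lower over all genes tested. Their median log2 fold change was 0.07, beside -0.01 over all genes tested. With a minimum value of 50, 15 of 35 target genes rose and 5 fell, where of all 10689 genes 1717 rose and 1685 fell. The median ribosomal protein gene stood at 0.08. With ribosomal protein genes level 3 of 36 target genes were called higher and 8 lower, while among 12838 genes 918 rose and 3047 fell. Floored at counting noise 7 target genes rose and 4 fell, and in the whole tested set 8.38% rose and 7.44% fell. The atrial light chain gene Myl4 had 439 and 428 with mock and 581 and 570 with Pdk3 (0.41 ± 0.04, limma adjusted p = 0.00027). The skeletal actin gene Acta1, a gene of the fetal programme, had 927 and 899 against 1106 and 1100 (0.27 ± 0.03, adjusted p = 0.000414). Xirp2, a direct target of MEF2 proteins in muscle, had 7027 and 6862 against 8084 and 7809 (0.19 ± 0.02, adjusted p = 0.00042). Myh7, the slow myosin heavy chain, rose by 0.12, a call that ended with ribosomal protein genes level (0.04, adjusted p = 0.0917). The Myh7 call also ended with no filter (0.0732) and with no intensity trend (0.151), as did that of Xirp2 (0.0626 and 0.0875). The Acta1 call ended with no intensity trend (0.0515).

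The targets that fell included Gja5, the connexin of atria and conduction fibres and a target of TBX5 and NKX2-5. Gja5 went from 634 and 675 with mock to 531 and 546 with Pdk3 (-0.28 ± 0.04, limma adjusted p = 0.0026). The Gja5 call ended with no filter (0.0689) and with no intensity trend (0.0703). The natriuretic peptide genes Nppa and Nppb, targets of GATA4, NKX2-5 and TBX5, had log2 fold changes of 0.11 each. Nppa passed (762 and 751 against 832 and 805, adjusted p = 0.0306, and 0.129 floored at counting noise) and Nppb did not (adjusted p = 0.0919).

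Several of the 10 factors are also made by other cells of the heart, such as endothelial, smooth muscle, epicardial and fibroblast cells, and in these bulk libraries fewer cells of a type and less RNA per cell cannot be told apart. All 12 proliferation markers rose, with a median log2 fold change of 0.86 and summed counts of 3858 to 3891 with mock and 7013 to 7365 with Pdk3. Beside the marker counts of this paragraph, 11.7% of all genes tested rose and 11.3% fell. Of 12 cardiomyocyte markers 6 rose and 1 fell, with sums of 27059 to 27422 and of 27818 to 28222 (11 of these 12 are also on the target list). Of 10 smooth muscle and pericyte markers 5 rose and 0 fell (7288 to 7367 against 7944 to 8074). Des, among those that rose, is also on the target list. Of 9 endothelial markers 2 fell, Cdh5 and Tie1, and 0 rose (1401 to 1441 against 1307 to 1344). Of 9 macrophage markers 5 fell and 0 rose (1365 to 1471 against 1108 to 1162), and of 8 tested epicardial and mesothelial markers 2 fell and 0 rose (522 to 549 against 446 to 466). Of 9 fibroblast markers 1 fell, Dcn, and 0 rose (5445 to 5524 against 5293 to 5451). Of the erythroid list the 2 rows of Hba-a2 fell (sums of 52 to 56 against 14 to 26), and of the Schwann and neural list 1 gene was tested and did not pass (63 to 75 against 50 to 69). No marker with a row was at 0 in all 4 libraries. The part of these markers in the values of Mef2c, Tbx20, Mef2d and Meis1 was not tested.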

How the data were processed

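RNA from 4 libraries was analysed, 2 with mock and 2 with Pdk3. Per the submitters' processing notes, reads were handled with FastQC, Trimmomatic 0.39, STAR 2.6.1d, featureCounts 1.6.5 of Subread and DESeq2 1.26.0 on rn6, with no settings given. The deposited values are used as a score: read counts per gene that the authors normalised between libraries and rounded, so not raw counts. From skipped and doubled whole numbers the scaling factors were estimated as 1.0256, 1.0567, 0.9246 and 0.9627 (Mock 1, Mock 2, Pdk3 1, Pdk3 2). If the units are single reads, this gives about 4562073, 4707141, 4139110 and 4303511 reads. The counting floor and intervals rest on the same reading, although libraries of a group differed by less than independent reads would. The sources used here do not give the strand setting, the treatment of duplicates or the gene filter.

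Genes with at least 10 in at least 2 libraries (12838) were tested with limma 3.58.1 in R 4.3.3 on log2(value + 1), with an intensity trend and group as the single term. Tests were two-sided and Benjamini-Hochberg adjusted over all genes. This scale understates the fold changes of low genes. Residual degrees of freedom were 2 and prior ones 5.56. The fit was repeated with the replicate number as a block, with libraries left out in turn, with TMM scaling, with ribosomal protein genes (64) level, with no filter or a minimum of 50, with pseudocounts of 0.5 and 8, with no trend, and with p floored at counting noise. Such floors and counting intervals cover counting error only, since PCR copies are not separate molecules. The 10 genes and all lists were chosen with earlier results of these data known, and no set test was made.

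Named are the 10 factors, Pdk3 and, from each companion list, at most 4 called genes in its more frequent direction and at most 2 in the opposite one, ranked by p. Other genes of these lists are named for their role or, where said, after their values were seen. Some genes that this rule or their role would name are not reported here.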

Additional observations from a re-analysis of the deposited data

How the results depend on the processing

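Mef2c was called under each alternative except the 4 that left out a library, and the changes of Tbx20, Meis1, Mef2d, Nkx2-5 and Tbx5 kept their sign in each of the 13 alternatives. With 1 library left out, limma called 0 genes higher and 0 lower over all genes, the 10 factors and each companion list, against 2918 to 3330 genes with an unadjusted p under 0.05. The log2 fold changes then ranged from 0.2872 to 0.3447 for Mef2c, 0.1022 to 0.1467 for Tbx20, -0.162 to -0.1144 for Mef2d and -0.2455 to -0.1512 for Meis1. Those that changed sign ranged from -0.0162 to 0.0117 for Gata4, -0.0777 to 0.0328 for Gata6 and -0.0144 to 0.0722 for Hand2. With ribosomal protein genes level, 918 genes were higher and 3047 lower, with 1 and 4 of the 10 factors, 0 and 11 other transcription factors, 11 lower partners and 3 and 8 target genes. There Tbx20 was at 0.0474 and not called, Gata4 (-0.0793) and Nkx2-5 (-0.1626) were called lower, and Mef2a (-0.054) and Hand2 (-0.0474) turned in sign. With no filter, 558 were higher and 418 lower, with 1 and 0 factors, 0 lower other transcription factors, 0 higher partners and 2 and 1 target genes. With no intensity trend, 526 were higher and 325 lower, with 1 and 0 factors, 0 and 0 other transcription factors, 1 and 0 partners and 1 and 0 target genes. Tbx20 (0.1245), Mef2d (-0.1382) and Meis1 (-0.1983) kept these values but lost their calls in both settings and when floored at counting noise. That floor left 955 genes lower, 1 and 0 factors, 0 higher other transcription factors, 1 higher partner and 7 higher target genes. TMM scaling gave 3 higher other transcription factors and Gata4 at 0.0082, and a minimum of 50 gave 2 of them higher and 4 partners lower. The labels do not say whether same-numbered libraries were made together. Their deviations were uncorrelated across genes (r = 0.00356). This cannot settle the question, since libraries of a group differed by less than counting noise. With the replicate block, 1374 genes were higher and 1298 lower, 1 factor was lower, and Meis1 (-0.1983, adjusted p = 0.0519) was no longer called. Apart from the alternatives' own construction, the cause was not tested. Depth limits Hand2 most among the factors.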
